A study of Mus musculus with 6 samples.

Results

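The integrated stress response is a shared route by which a cell lowers protein synthesis under stress. Kinases such as PERK, which senses unfolded protein in the endoplasmic reticulum (ER), phosphorylate the translation initiation factor eIF2, and translation of the transcription factor ATF4 then rises although most other translation falls. ATF4 switches on genes of amino acid supply and, with its partner CHOP, genes of cell death and of feedback. In liver, the hormone FGF21 is a known target of this route and also of the fasting receptor PPARA.

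The genes described here are 10 known components or targets of this route: *Atf4*, *Ddit3*, *Trib3*, *Asns*, *Chac1*, *Fgf21*, *Sesn2*, *Atf3*, *Ppp1r15a* and *Nupr1*. They were found by gene symbol among the 54446 genes of the deposited table, where they hold 11 rows, because *Ddit3* has a second row. That second row is an entry of 105 exonic bases that lies wholly within the exons of *Ddit3* and had 0 counts in all 6 libraries, so the other *Ddit3* row was used. All 10 genes passed the filter on low counts, which left 16734 genes.

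RNA from the liver of 3 wild-type (WT) and 3 *Fmo5*-/- mice was sequenced, 1 library for each mouse. All were males of 32 weeks on the C57BL/6J background, fed a standard chow, and *Fmo5*, which encodes flavin-containing monooxygenase 5, was disrupted in all tissues. Each library held 44886286 to 52338675 counts on genes. *Fmo5* itself had 37589, 33521 and 29576 counts in the WT mice and 1150, 1201 and 1216 in the *Fmo5*-/- mice, a log2 fold change of -5.00 ± 0.14 (SE), with an adjusted p of 2.79e-07. Hepatocyte markers held 124184 to 150822 CPM (counts scaled to the library total) in WT and 136875 to 155672 in *Fmo5*-/- livers. Summed markers of Kupffer cells and macrophages were at 307.7 to 361.0 CPM in WT and at 489.1 to 945.0 in *Fmo5*-/- livers, and all 12 had a higher fitted level, with no overlap between the genotypes for 10, beside 13.9% of all tested genes in that direction. Of the 12, edgeR called 1 (all 12 at an unadjusted p under 0.05), beside 1.37% of all tested genes (21.8% unadjusted), and DESeq2 called 11, beside 8.93%. Of the 12, *Clec4f* had the highest mean normalized count. Whole liver was sequenced, so fewer cells of a type and less RNA per cell cannot be told apart.

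ATF4 acts at a composite site, the C/EBP-ATF response element (CARE), searched here as TGATGNAAN on both strands of the 300 bases around each start site, from 250 bases before it. This motif was found in the promoters of 6 of the 10 genes, and in 1299 of 32851 promoters of 27025 genes (3.95%) in the RefSeq table for GRCm38.p6. The 6 sites are shown with 20 bases on each side, since they are the sequence that *Fgf21* and *Asns*, the genes that differed most, share with 4 genes whose genotypes overlapped. Each is written 5′ to 3′ on the strand of its gene, with the motif in capitals, which on the opposite strand reads as its reverse complement.
Fgf21: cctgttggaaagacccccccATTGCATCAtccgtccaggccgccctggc
Asns: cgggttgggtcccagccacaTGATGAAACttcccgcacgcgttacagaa
Chac1: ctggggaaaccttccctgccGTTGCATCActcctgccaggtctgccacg
Trib3: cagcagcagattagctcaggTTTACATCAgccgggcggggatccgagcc
Atf3: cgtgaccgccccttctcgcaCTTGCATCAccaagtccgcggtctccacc
Nupr1: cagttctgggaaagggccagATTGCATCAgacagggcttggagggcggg

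These windows lie at chr7:45615602-45615650 (*Fgf21*, minus strand), chr6:7693204-7693252 (*Asns*, minus), chr2:119351028-119351076 (*Chac1*, plus), chr2:152344019-152344067 (*Trib3*, minus), chr1:191183416-191183464 (*Atf3*, minus) and chr7:126625553-126625601 (*Nupr1*, minus). The motif began 140 bases before the start site of *Fgf21* and 23 bases before that of *Asns*, whereas in *Trib3* it began 14 bases after the start. The *Ppp1r15a* promoter held instead a cyclic AMP response element (TGACGTCA, a palindrome), 12 bases before its start at chr7:45526253-45526300 on the minus strand, a motif found in 1.79% of all promoters.
Ppp1r15a: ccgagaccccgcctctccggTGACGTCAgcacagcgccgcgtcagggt

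The windows of *Atf4*, *Ddit3* and *Sesn2* held neither motif, which says only that these letters are not in these 300 bases. A match is a description of the sequence and not evidence of binding.

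Of the 10 genes, 1 was called at an adjusted p under 0.05 (edgeR's quasi-likelihood test, Benjamini-Hochberg adjustment over all tested genes): *Fgf21*, which was lower in *Fmo5*-/- liver. Over all tested genes 229 were called (1.37%), and 116 of these were lower (0.693%). The genotypes did not overlap for 3 of the 10 genes, *Fgf21*, *Asns* and *Ddit3*, all lower in *Fmo5*-/-, beside 4578 of all tested genes in either direction (27.4%) and 13.5% in the lower direction. The median log2 fold change of the 10 genes was 0.08, beside 0.0058 for all tested genes, and it was 0.016 without *Fmo5*-/- mouse 1, 0.017 without WT mouse 2 and 0.030 without *Fmo5*-/- mouse 2. As reported, 7 of the 10 had a fitted level above WT without passing the test. The other 3 had a lower one, beside 49.2% of all tested genes.

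**Figure D1:**
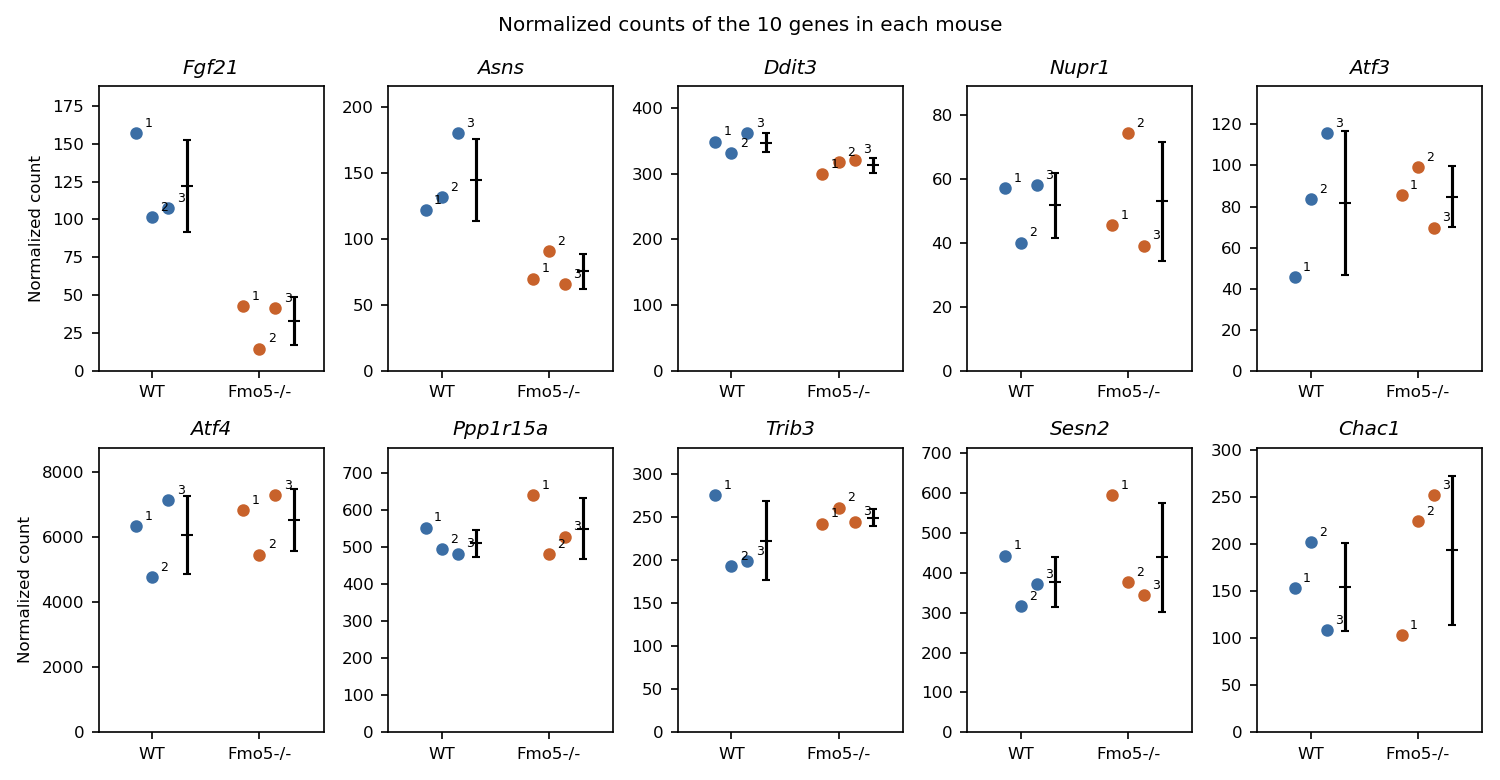
Normalized counts (y axes, from 0) of the 10 genes in each WT (blue) and *Fmo5*-/- (orange) mouse, numbered by replicate, with the mean and SD of each genotype in black (n = 3). The 3 *Fmo5*-/- mice sit below the 3 WT mice for *Fgf21*, *Asns* and *Ddit3*, and the genotypes overlap in the other 7 panels.

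*Fgf21* (ENSMUSG00000030827.5, chr7:45613886-45615490, minus strand) encodes a hormone that the liver secretes in fasting and amino acid shortage. Its normalized counts were 156.7, 101.5 and 107.4 in the WT mice and 42.9, 14.7 and 41.2 in the *Fmo5*-/- mice. Every *Fmo5*-/- mouse was thus below every WT mouse, with *Fmo5*-/- mouse 2 the lowest and WT mouse 1 the highest. The log2 fold change was -1.89 ± 0.37 (SE), with a 95% confidence interval from -2.72 to -1.05, so that *Fmo5*-/- liver held 27.0% of the WT level (15.1% to 48.2%), with an adjusted p of 0.0494. This call rests close to the threshold: the adjusted p was 0.141, 0.0953 and 0.0784 without WT mouse 1, 2 or 3, 0.121 without *Fmo5*-/- mouse 1 and 0.0653 with the reads of 1 strand only. It was 0.0486 and 0.0371 without *Fmo5*-/- mouse 2 or 3, and DESeq2's Wald test gave 1.79e-05.

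*Asns* (ENSMUSG00000029752.12, chr6:7675169-7693254, minus strand) encodes asparagine synthetase, which makes asparagine from aspartate and glutamine. Its normalized counts were 121.8, 131.7 and 179.9 in the WT mice and 69.9, 90.9 and 65.8 in the *Fmo5*-/- mice. The genotypes did not overlap, and WT mouse 3 was the highest. *Asns* had a log2 fold change of -0.93 ± 0.22 (SE; 95% confidence interval -1.43 to -0.44), and the adjusted p of 0.0687 missed the threshold. DESeq2's Wald test, by which 1396 of 15634 genes were called (8.93%), gave an adjusted p of 0.00338. By edgeR the adjusted p of *Asns* was 0.0935 to 0.154 with 1 mouse left out, and 0.0998 with the reads of 1 strand only. The log2 fold change was -0.74 without WT mouse 3.

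*Atf4* (ENSMUSG00000042406.8, chr15:80255184-80257541) encodes the transcription factor of the route, and it was the most abundant of the 10, with a mean level of 54.7 CPM per kilobase of exon. Its normalized counts were 6325, 4765 and 7120 in WT and 6829, 5460 and 7288 in *Fmo5*-/- mice. Mouse 2 was the lowest of each genotype, and the genotypes overlapped. Its log2 fold change was 0.10 (95% confidence interval -0.26 to 0.47; adjusted p 0.757). ATF4 is controlled mainly in translation, and its protein was not measured in these libraries.

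*Ddit3* (ENSMUSG00000025408.15, chr10:127290774-127296288), which encodes CHOP, the partner of ATF4 in ER stress, had the smallest spread of the 10 genes. Its normalized counts were 348.4, 331.4 and 360.9 in WT and 299.0, 317.6 and 321.0 in *Fmo5*-/- mice, so that the genotypes did not overlap. The difference was small, with a log2 fold change of -0.15 (95% confidence interval -0.40 to 0.10), and it did not pass the test (adjusted p 0.465). The exons of *Ddit3* share 105 bases (6.13%) with its second entry, and 68 bases (3.97%) with *Mars* and 13 (0.759%) with *Gm4189* on the other strand, and counting did not use strand. Reads that fall in these shared bases are counted for none of the genes.

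*Atf3* (chr1:191170296-191218039, minus strand) encodes a repressor of the same family that ATF4 induces. Its normalized counts ranged from 45.5 to 115.5 in WT and from 69.7 to 99.1 in *Fmo5*-/- mice, and the WT mice alone spanned more than the *Fmo5*-/- mice. *Atf3* had a log2 fold change of 0.06 (95% confidence interval -0.66 to 0.77; adjusted p 0.937). *Nupr1* (chr7:126623249-126630861, minus strand), a small chromatin-associated stress protein, had the fewest counts over all 6 mice, although *Fgf21* was lower in the *Fmo5*-/- mice. It was at 57.2, 40.2 and 58.3 in WT and 45.6, 74.3 and 39.3 in *Fmo5*-/- mice. Its log2 fold change was 0.03 (95% confidence interval -0.63 to 0.70).

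The feedback genes of the route did not pass the test either. *Ppp1r15a* (chr7:45522916-45526268, minus strand) encodes GADD34, which brings a phosphatase to eIF2 and so ends the response, and its counts were 552.8, 495.4 and 482.6 in WT and 640.9, 481.9 and 528.2 in *Fmo5*-/- mice (log2 fold change 0.11, 95% confidence interval -0.17 to 0.39). *Trib3* (chr2:152337422-152344032, minus strand), a pseudokinase that inhibits AKT and binds ATF4, was at 275.3, 193.0 and 198.4 in WT and 242.2, 260.7 and 244.5 in *Fmo5*-/- mice (log2 fold change 0.16, -0.20 to 0.53). The highest *Trib3* value was that of WT mouse 1, and the other WT mice lay below all 3 *Fmo5*-/- mice.

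*Sesn2* (chr4:132492032-132510501, minus strand) encodes sestrin 2, a leucine sensor that restrains mTORC1. Its normalized counts were 442.7, 315.8 and 371.1 in WT and 594.3, 375.4 and 344.6 in *Fmo5*-/- mice. *Fmo5*-/- mouse 1 was the highest, and the log2 fold change was 0.22 (95% confidence interval -0.29 to 0.72). *Chac1* (chr2:119351229-119354381), which degrades glutathione, had 153.6, 202.0 and 108.4 counts in WT and 103.4, 224.9 and 252.3 in *Fmo5*-/- mice. Its log2 fold change was 0.32, and its interval, from -0.50 to 1.15, was the only one among the genes with a positive fold change to reach 1. The value depended on single mice, at 0.63 and 0.086 without *Fmo5*-/- mouse 1 or 3, 0.20 without *Fmo5*-/- mouse 2, and 0.57 and 0.13 without WT mouse 2 or 3.

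The 95% confidence intervals of 7 of the 10 genes lay wholly between -1 and 1 on the log2 scale, so that a change of the mean by more than 1 log2 unit was outside them. The exceptions were *Fgf21*, *Asns* and *Chac1*. A p that misses the threshold does not show that the genotypes are alike, and with 3 mice against 3 an exact permutation test of a single gene cannot go below 0.1. No mouse had the highest value for most of the 10 genes: WT mouse 3 had it for 3, and WT mouse 2 for none. WT mouse 2 had the lowest value for 3 (*Atf4*, *Trib3* and *Sesn2*).

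**Figure D2:**
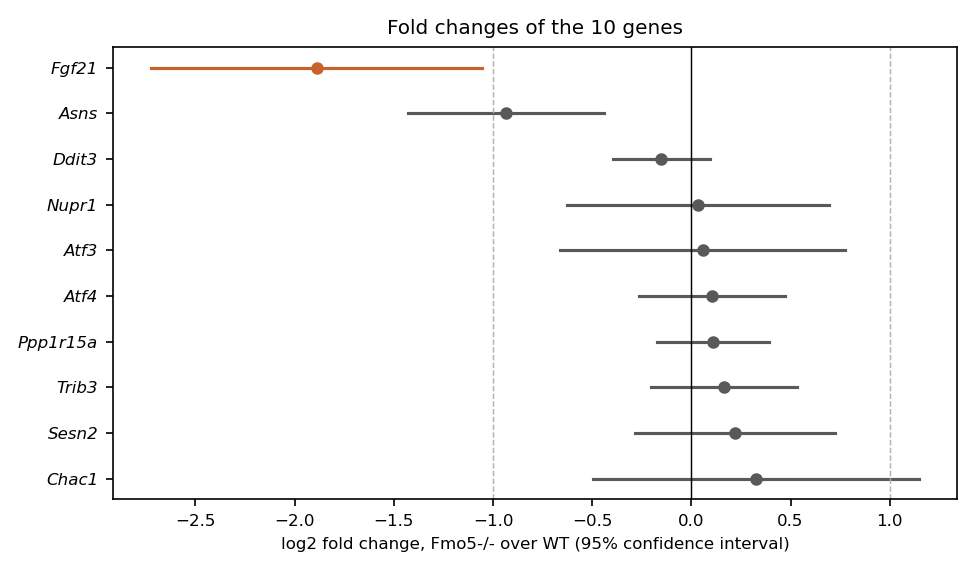
The log2 fold change, *Fmo5*-/- over WT, of each gene (x axis, points) with its 95% confidence interval (lines), in order of the fold change; orange marks an adjusted p under 0.05 and dashed lines mark -1 and 1. *Fgf21* at -1.89 is the only gene in orange, and the intervals of *Asns* and *Fgf21* are the ones that leave out 0.

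The genes upstream of ATF4 were next compared, since its mRNA is not its main point of control. The list of 19 holds the eIF2 kinases, eIF2, its exchange factor eIF2B and phosphatase subunits, together with *Gcn1l1*, *Dnajc3* and *Nck1*, whose products act on the kinases or on eIF2. None of the 19 passed edgeR's test in either direction. At an unadjusted p under 0.05 edgeR gave 8 of the 19, beside 3647 of all tested genes (21.8%). DESeq2 called 1, *Dnajc3*, beside 8.93% of all genes. The median log2 fold change of the 19 was -0.13, and the genotypes did not overlap for 7, of which 6 were lower, beside 27.4% and 13.5% of all tested genes. *Eif2ak3*, which encodes PERK, was at 577.2, 516.7 and 691.2 normalized counts in WT and 690.3, 555.3 and 692.1 in *Fmo5*-/- mice (log2 fold change 0.12, 95% confidence interval -0.18 to 0.42).

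*Eif2s1*, which encodes the subunit that PERK phosphorylates, had a log2 fold change of -0.24 (adjusted p 0.121), and *Ppp1r15b*, the constitutive partner of the phosphatase, one of -0.17 (adjusted p 0.381). *Dnajc3*, which encodes the PERK inhibitor p58IPK and is itself a target of the ER stress response, had the largest difference of the list. Its normalized counts were 14229, 16762 and 12485 in WT and 9730, 10269 and 9813 in *Fmo5*-/- mice, a log2 fold change of -0.54 (adjusted p 0.0552). *Eif2s3x* was at -0.40, *Ppp1cb* at -0.32 and *Eif2ak2*, the kinase PKR, at 0.25, and none passed the test.

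Of 15 relatives of the 10 genes, edgeR called 1, *Trib1*, beside 1.37% of all tested genes. DESeq2 called 2, *Trib1* and *Trib2*, beside 8.93% of all genes. *Trib1*, a pseudokinase like *Trib3* that directs C/EBP proteins to degradation, was at 2621, 2474 and 2304 normalized counts in WT and 1552, 1741 and 1796 in *Fmo5*-/- mice. It fell by 0.54 on the log2 scale (adjusted p 0.0293), and the call was lost without WT mouse 1 (0.121), WT mouse 2 (0.0771), *Fmo5*-/- mouse 1 (0.102) or *Fmo5*-/- mouse 2 (0.0598). The call was also lost with a mean of 500 or more set before the fit (0.0608). *Trib2* was at 0.77, higher in every *Fmo5*-/- mouse (edgeR's adjusted p 0.101), *Cebpd* at 0.35, *Chac2* at -0.31 and *Atf5*, a further translationally controlled factor, at -0.25. *Cebpb* and *Cebpg*, whose products pair with ATF4 at the CARE, had log2 fold changes of -0.03 and -0.18.

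A further 50 tested genes of the lists of ATF4 targets were counted in the same way. Of these, 1 was called, *Gpt2*, beside 1.37% of all tested genes. Their median log2 fold change was -0.08, and it was -0.13 without *Fmo5*-/- mouse 1. By DESeq2's Wald test 8 of the 50 were called, 4 higher and 4 lower, beside 8.93% of all genes. The genotypes did not overlap for 19 of the 50, of which 12 were lower in *Fmo5*-/- and 7 higher, beside 27.4% of all tested genes.

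The 11 tested genes of amino acid synthesis had a median log2 fold change of -0.25. DESeq2 called 3 of them, *Gpt2* (lower) and *Got1* and *Aldh18a1* (both higher), beside 8.93% of all genes. *Gpt2*, the mitochondrial alanine aminotransferase, was at 20063, 20685 and 19032 normalized counts in WT and 13831, 13333 and 13756 in *Fmo5*-/- mice, with no overlap. It fell by 0.55 on the log2 scale (adjusted p 0.0230), and the call was lost without WT mouse 1 (0.0959), WT mouse 2 (0.0692), *Fmo5*-/- mouse 1 (0.0898) or *Fmo5*-/- mouse 2 (0.0614). *Pck2*, the mitochondrial form of phosphoenolpyruvate carboxykinase, was at -0.45, *Psph*, the last step of serine synthesis, at -0.25, *Mthfd2* at 0.40 and *Got1* at 0.43. By edgeR the adjusted p values of these 4 genes were all above the threshold, the lowest being 0.120 for *Got1*, which was higher in every *Fmo5*-/- mouse than in every WT mouse.

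The 9 tested amino acid transporters had the highest median of the 4 lists of ATF4 targets, 0.52. None passed edgeR's test (4 at an unadjusted p under 0.05, and 1, *Slc43a1*, by DESeq2), and the genotypes did not overlap for 5. Of these, 4 were higher in *Fmo5*-/- mice, beside 13.9% of all tested genes, and 1, *Slc3a2*, was lower, at -0.10. *Slc43a1* was at 201.2, 285.7 and 257.7 normalized counts in WT and 354.0, 392.8 and 411.4 in *Fmo5*-/- mice, a log2 fold change of 0.64 (adjusted p 0.0694). *Slc1a5* was at 0.62 (adjusted p 0.133), *Slc1a4* at 0.52 and *Slc6a9* at -0.21. All 11 T and NK cell markers also had a higher fitted level in *Fmo5*-/- mice, with 0 called by edgeR (8 at an unadjusted p under 0.05) and 5 by DESeq2. The shares of all tested genes were 21.8% at that p and 8.93% by DESeq2. The markers' sum was 7.05 to 11.5 CPM in WT and 13.0 to 42.3 in *Fmo5*-/- livers, and *Il2rb* had the most counts. Of 7 tested proliferation markers, all 7 fitted higher, edgeR called 0 (6 at an unadjusted p under 0.05) and DESeq2 called 3. The genotypes did not overlap for 5 of the 7, all higher, beside 13.9% of all tested genes. The proliferation markers summed to 7.04 to 7.37 CPM in WT and 8.99 to 23.3 in *Fmo5*-/- livers. Their part in the transporters' values was not tested.

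Of the 13 genes of tRNA charging and tRNA export, 12 had a lower fitted level, beside 49.2% of all tested genes, and the median was -0.14. None of the 13 passed edgeR's test, with 4 at an unadjusted p under 0.05 (21.8% of all tested genes) and 0 called by DESeq2. The genotypes did not overlap for 5 of the 13, all lower, beside 13.5% of all. The most different were *Xpot* at -0.34, *Tars* at -0.31, *Iars* at -0.28 and *Nars* at -0.24. The CARE was present in 5 of 9 promoters of this list in the RefSeq table, beside 3.95% of all promoters. It was in 3 of 11 promoters of amino acid synthesis, 2 of 11 of transport and 2 of 20 of other targets. Of 17 other targets none passed edgeR's test and 4 had an unadjusted p under 0.05. DESeq2 called 4 (*Gadd45b*, higher, and *Gadd45a*, *Herpud1* and *Nfe2l2*, lower), beside 8.93% of all genes. The largest differences among the more abundant ones were *Gadd45a* at -0.73, *Herpud1* at -0.67, *Txnip* at -0.52 and *Gdf15* at 0.30. *Gdf15*, a stress hormone like *Fgf21*, had values of 668.2, 251.1 and 258.7 in WT and 435.0, 694.8 and 315.1 in *Fmo5*-/- mice, and its interval from -0.97 to 1.56 covered both directions.

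**Figure D3:**
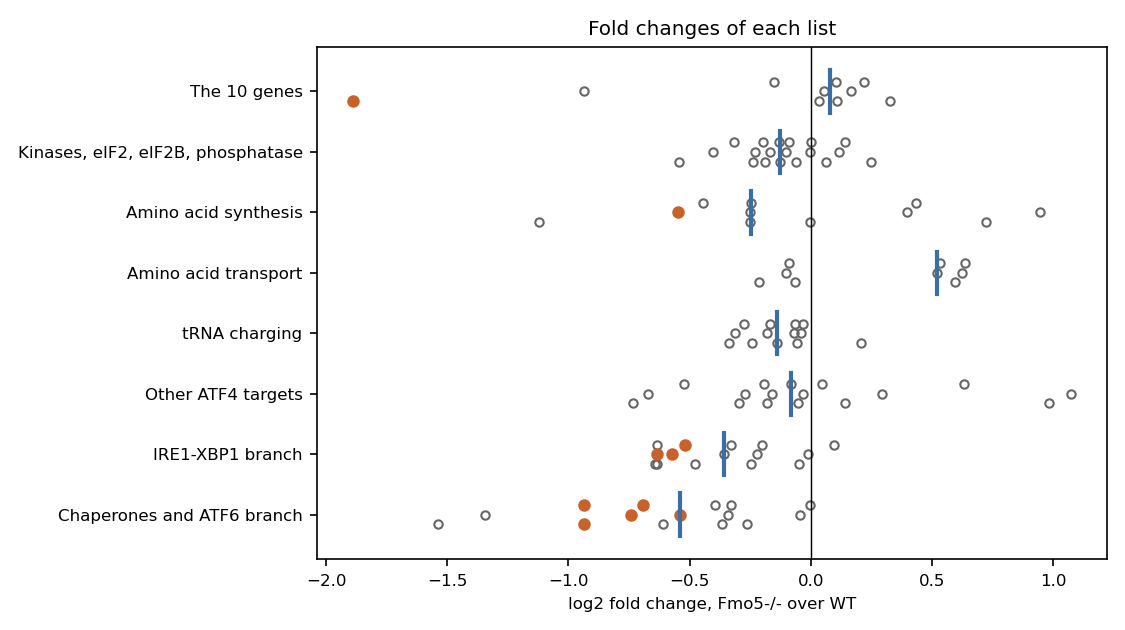
The log2 fold change, *Fmo5*-/- over WT, of every tested gene (x axis, 1 point a gene) in each list, with blue bars at the medians and orange points for an adjusted p under 0.05. The medians are 0.08 for the 10 genes, -0.25 for amino acid synthesis, 0.52 for transport, -0.14 for tRNA charging and -0.08 for other targets, and -0.36 and -0.54 for the XBP1 and ATF6 lists.

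The other branches of the ER stress response were set beside the 10 genes. The 15 genes of the ATF6 list are *Atf6*, the proteases *Mbtps1* and *Mbtps2* that cleave its product, and 12 chaperones and ER degradation genes. All 15 had a lower fitted level (49.2% of all tested genes did), with a median log2 fold change of -0.54. Of these, edgeR called 5 (*Hspa5*, *Hyou1*, *Pdia4*, *Sel1l* and *Manf*), beside 0.693% of all tested genes in that direction. DESeq2 called 9, beside 8.93% of all genes in either direction, and the genotypes did not overlap for 9, all lower, beside 13.5% of all. Of the 15 genes of the IRE1-XBP1 branch, edgeR called 3, all lower (*Serp1*, *Dnajb11* and *Ssr3*), beside the same 0.693%. DESeq2 called 6, beside 8.93% of all genes. The genotypes did not overlap for 8, all lower, beside 13.5% of all, and the median was -0.36. *Hspa5*, which encodes BiP, the chaperone that holds PERK inactive, was at 65310, 64405 and 51425 normalized counts in WT and 30378, 33711 and 30482 in *Fmo5*-/- mice, a fall of 0.94 on the log2 scale (adjusted p 0.00977). *Xbp1* was at 0.10 (adjusted p 0.792).

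The numbers of calls moved with the libraries used: without *Fmo5*-/- mouse 1, none of the 30 genes of both lists was called by edgeR, and *Hspa5* had an adjusted p of 0.0600. Without WT mouse 1 the ATF6 list had 2 calls and the XBP1 list 0, and without WT mouse 2 they had 3 and 0. The XBP1 list had 1 call without *Fmo5*-/- mouse 2 or 3, and 0 with a mean of 500 or more set before the fit. The *Hspa5* promoter held an ER stress response element (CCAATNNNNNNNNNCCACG), which 0.119% of all promoters and none of the 10 genes held. This motif was in 8 of 12 promoters of the ATF6 list and in 0 of 13 of the XBP1 list. The *Hspa5* site is shown beside those of the CARE, at chr2:34772005-34772063 on the plus strand, with the element in capitals.
Hspa5: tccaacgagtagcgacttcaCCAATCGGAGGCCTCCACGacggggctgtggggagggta

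*Fgf21* was then set beside its receptor genes, liver genes of PPARA, which also acts on *Fgf21*, and other genes such as *Mlxipl*. Of these 19 genes, 18 had a lower fitted level in *Fmo5*-/- mice, beside 49.2% of all tested genes, and the median log2 fold change was -0.32. None passed edgeR's test (5 at an unadjusted p under 0.05, beside 21.8% of all tested genes). The genotypes did not overlap for 6, of which 5 were lower (*Acadm*, *Cpt1a*, *Acot1*, *Plin2* and *Creb3l3*), beside 27.4% and 13.5% of all. DESeq2 called 3 of the 19, beside 8.93% of all genes: *Fgfr2*, the 1 gene that was higher, at 0.34, and *Acadm* and *Plin2*, which were lower, at -0.39 and -0.45. *Klb*, the co-receptor of FGF21, was at -0.21 and *Fgfr1* at -0.003, with an interval for *Fgfr1* from -0.99 to 0.99. *Cyp4a14*, a fatty acid hydroxylase, was at 19769, 3043 and 1890 normalized counts in WT and 4934, 3765 and 3057 in *Fmo5*-/- mice.

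WT mouse 1, the highest for *Fgf21*, was thus also the highest for *Cyp4a14*, and the same held for *Cyp4a10* (15179, 8218 and 5622 in WT) and *Vnn1* (3410, 1869 and 1399 in WT). It was also the highest for *Acadm*, *Ehhadh*, *Acot1*, *Pdk4* and *Plin2*. WT mouse 2, the lowest WT mouse for *Fgf21*, was instead the highest of all mice for *Ppara*, *Cpt1a*, *Angptl4*, *Creb3l3* and *Fgfr1*. For the rest of the list the highest value lay in another mouse. For *Cyp4a14* the genotypes overlapped, with a log2 fold change of -1.07 and an interval from -3.75 to 1.61, and *Cyp4a10* was at -0.74, *Pdk4* at -0.71 and *Vnn1* at -0.61. Without WT mouse 1, the log2 fold change of *Fgf21* was -1.66. The part of these genes in the *Fgf21* values was not tested.

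**Figure D4:**
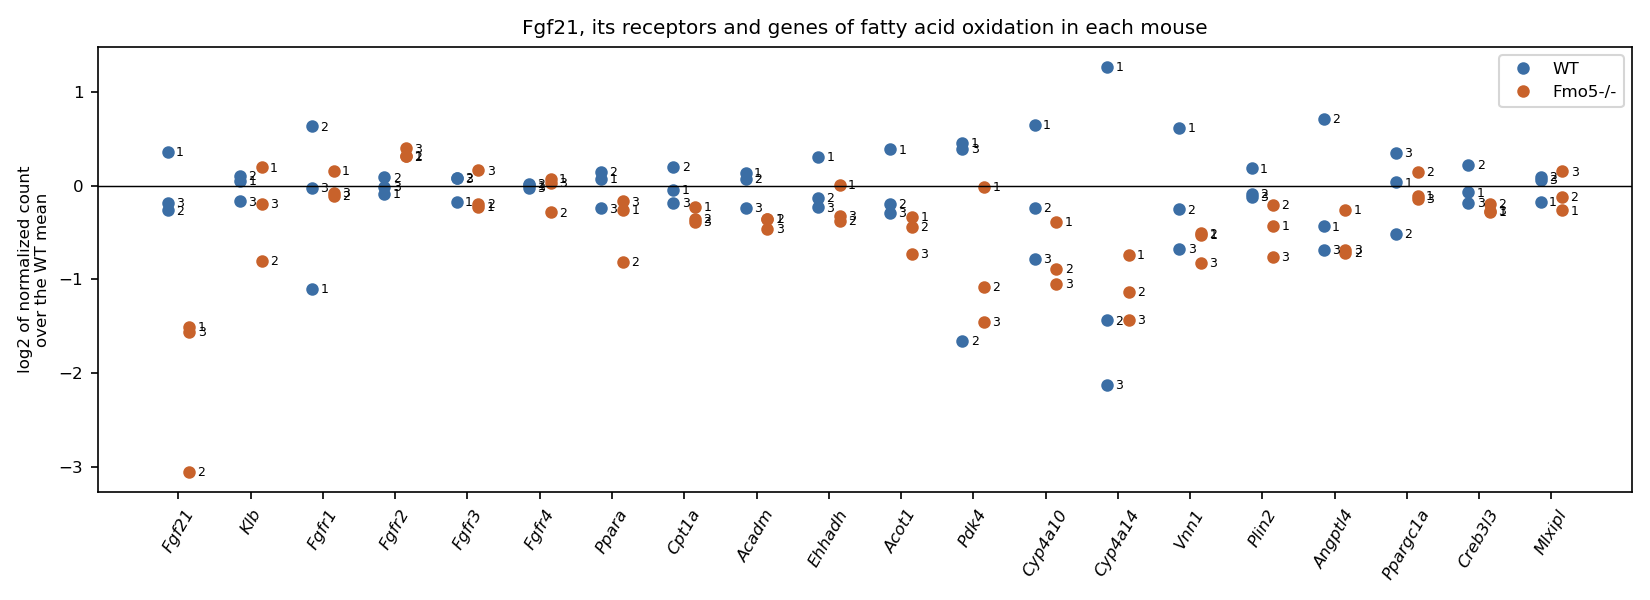
Normalized counts of *Fgf21*, its receptor genes, liver genes of PPARA and other genes such as *Mlxipl* in each mouse. Values are the log2 of the count over the WT mean (y axis), with WT in blue, *Fmo5*-/- in orange and mice numbered by replicate. Among others, WT mouse 1 is the highest for *Fgf21*, *Cyp4a14*, *Cyp4a10* and *Vnn1*, and WT mouse 2 for *Ppara*, *Cpt1a*, *Angptl4* and *Creb3l3*. The genotypes do not overlap for *Fgf21* and for 6 of the other 19 genes.

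Some of the 10 genes also respond to other signals, whose genes were counted in the same way. No gene of the immediate early, p53, glucocorticoid or clock lists passed edgeR's test. At an unadjusted p under 0.05 there were 3 of 21, 2 of 17, 3 of 12 and 2 of 16 genes, beside 21.8% of all tested genes. DESeq2, with 8.93% of all genes called, called *Gadd45b*, *Mt1* and *Lcn2*. Of the immediate early genes, *Egr1* was at -0.80, *Dusp1* at -0.59, *Nr4a1* at 0.57 and *Ier5* at 0.49. Of the p53 targets, *Cdkn1a* was at 0.64, *Bax* at 0.28 and *Bbc3* at -0.19, and among the glucocorticoid genes *Lcn2* was at 2.75 and *Mt1* at 0.83.

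The clock genes set WT mouse 2 apart from the other WT mice, and some of them set *Fmo5*-/- mouse 3 apart from the other *Fmo5*-/- mice. *Dbp*, a clock output gene, was at 557.0, 1772 and 330.2 normalized counts in WT and 384.7, 324.0 and 817.8 in *Fmo5*-/- mice, and *Cry1* was lowest in WT mouse 2, at 349.3 beside 899.1 and 840.4 in the other WT mice. *Fmo5*-/- mouse 3 was at 4558 for *Tef*, beside 3373 and 2934 in the other *Fmo5*-/- mice, and at 5086 for *Nr1d1*, beside 4156 and 4011. For *Cry1* it lay between them, at 446.7 beside 556.1 and 389.2. *Dbp* had a log2 fold change of -0.80, *Per3* was at -0.59, *Cry1* at -0.59 and *Tef* at -0.35. Livers were collected over a window of the morning, and the part of collection time was not tested. Without WT mouse 2 the log2 fold change of *Atf4* was -0.04 and that of *Trib3* 0.07. That of *Trib3* was 0.35 without WT mouse 1.

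**Figure D5:**
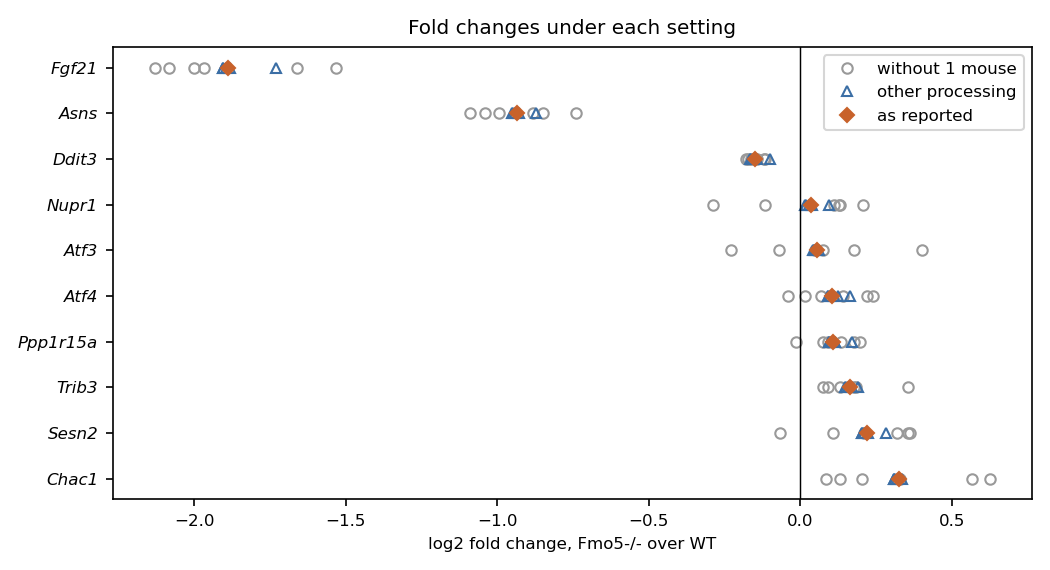
The log2 fold change, *Fmo5*-/- over WT, of each gene (x axis) as reported (orange diamonds), under other processing (blue triangles) and without each mouse in turn (grey circles). *Fgf21*, *Asns* and *Ddit3* stay below 0 in every fit shown, and *Nupr1*, *Atf3*, *Atf4*, *Ppp1r15a* and *Sesn2* cross 0 when 1 mouse is left out.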

How the data were processed

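Per the labels and the study's methods, the authors mapped single reads to mm10 with STAR 2.6.0c and deposited counts per gene for both strands and for each strand. The authors also deposited 1 DESeq2 1.22.2 table, whose signal columns are counts divided by a size factor, and whose log2, score and p-value columns hold the authors' own comparison and were not used. Counts of both strands were tested with edgeR 4.0.16 in R 4.3.3 (filterByExpr with a minimum count of 10, TMM, robust quasi-likelihood fit, Benjamini-Hochberg over 16734 genes), and DESeq2 1.42.0 was the alternative. A standard error is the log2 fold change over the square root of F. Normalized counts are counts scaled by TMM library size. The code was tested on simulated data. The members and lists were chosen with earlier results of these data known. Named genes are the 10, called list genes, up to 4 further genes of each list with a mean of 100 or more and the largest change, and direct partners. The called genes of the ER lists other than *Hspa5*, the genes named as called by DESeq2 and the promoter windows shown were chosen after their values were seen. 1 gene was left out of the PPARA list and is not reported here. Positions are from GENCODE vM21, on the same build as mm10, and promoters from RefSeq GRCm38.p6. Each mouse gave 1 library, so p-values cover the spread between mice. A count of 0 allows up to 3 counts, which covers counting error only.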

Additional observations from a re-analysis of the deposited data

How the results depend on the processing

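No paired analysis was possible because the labels give no replicate numbers, and those used here only name the mice. *Fmo5*, the median of the 10 genes and the median of the 50 further targets kept their direction in every alternative run, although the median of the 10 ranged from 0.016 to 0.13 with 1 mouse left out. The genes called in the whole table numbered 1396 by DESeq2, 1989 with no filter on low counts, 53 with a mean of 500 or more before the fit and 31 to 763 with 1 mouse left out. Of the 10 genes, 2 (*Asns* and *Fgf21*, adjusted p for *Asns* 0.00338 and 0.000842) were called by DESeq2 and with no filter, 0 with a mean of 500 or more, when only 2 of the 10 were tested, 0 with the reads of 1 strand, and 0 to 1 with 1 mouse left out. Of the further targets, 8 were called by DESeq2, 12 with no filter and 0 to 4 with 1 mouse left out. With 1 mouse left out, the log2 fold change ranged from -0.23 to 0.40 for *Atf3*, -0.040 to 0.24 for *Atf4*, -0.29 to 0.21 for *Nupr1*, -0.016 to 0.20 for *Ppp1r15a* and -0.066 to 0.36 for *Sesn2*. For *Trib3* the range was 0.075 to 0.35. Apart from the fits with fewer genes or mice, the cause of these shifts was not tested. In single mice *Asns*, *Atf3*, *Nupr1*, *Chac1* and *Fgf21* had 14.7 to 252.3 normalized counts, and counting error was not separated from the spread between mice.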

Other observations

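Markers of other cells of the liver were counted beside the 10 genes. All 6 tested markers of neutrophils and monocytes were fitted higher in *Fmo5*-/- than in WT liver. Their median was 1.07 on the log2 scale, edgeR called 1 (4 at an unadjusted p under 0.05) and DESeq2 called 2, beside 1.37%, 21.8% and 8.93% of all genes. The genotypes did not overlap for 4 of the 6, all higher, beside 13.9% of all, and their sum was 4.31 to 7.19 CPM in WT and 8.59 to 18.3 CPM in *Fmo5*-/- livers. Of 10 endothelial markers, led by *Ptprb*, edgeR called 0 (5 at an unadjusted p under 0.05) and DESeq2 called 2, and the median was -0.11. The medians of the stellate cell, cholangiocyte, B and plasma cell and erythroid markers were 0.15, 0.02, 0.36 and 0.33. Of these markers edgeR called none, with 1 of 11, 0 of 10, 2 of 9 and 1 of 7 at an unadjusted p under 0.05. DESeq2 called 1 (*Igkc*). Of the pancreatic acinar markers, 4 of 8 had no count in any library.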
